A study of Mus musculus with 3 samples.

Results

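A set of 10 genes that make, anchor or restrain bone mineral was followed in cultured preosteoblasts exposed to titanium wear particles, alone or with selenomethionine. They were chosen by name: Spp1, Dmp1, Ibsp, Phex, Alpl, Bglap, Bglap2, Enpp1, Ank and Slc20a1. Of these 10 genes, 9 are listed among the 15287 genes of the deposited table, and 6 reached 1 FPKM in some library, as did 11137 genes in all. FPKM is a number of sequenced fragments scaled to transcript length and to library size, so that levels can be set side by side between genes. Enpp1, the enzyme that makes pyrophosphate outside the cell, is not listed, so that its level was not analysed here.

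The cells were MC3T3-E1, a wild-type preosteoblast line from mouse calvaria, and total RNA gave 3 libraries, a single library for each condition. CTL came from cells with no special treatment, for which the labels give no time. The Ti library came from cells kept for 24 h with Ti particles at 10 μg/cm2, and Ti+Se-Met from cells kept as long with that particle dose and 5 μM Se-Met. Se-Met is selenomethionine, the selenium form of the amino acid methionine. The sources used here do not state whether the sequenced cells had received osteogenic medium, and a line in culture lacks the osteoclasts, vessels and marrow of bone. No difference has a replicate check, no test between conditions was possible, and a condition cannot be told apart from its culture dish and library. In RNA from whole cultures, a larger share of cells that use a gene cannot be told apart from more RNA per cell.

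Bone mineral is calcium phosphate laid down on a collagen matrix, and its growth depends on the balance of phosphate against pyrophosphate, which blocks crystal growth. Alpl encodes tissue-nonspecific alkaline phosphatase, which splits pyrophosphate and releases phosphate. Ank encodes a membrane protein that lets pyrophosphate and ATP leave the cell, and Slc20a1 encodes a sodium-phosphate cotransporter. Spp1 (osteopontin), Dmp1 (dentin matrix protein) and Ibsp (bone sialoprotein) are acidic phosphoproteins of the SIBLING family, whose genes lie side by side. They bind hydroxyapatite, and osteopontin also holds back crystal growth and binds integrins and CD44. Phex is a peptidase whose loss causes phosphate wasting in the kidney, and Bglap and Bglap2 encode osteocalcin, a calcium-binding protein of mature osteoblasts.

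The sequences upstream of 4 of these genes are shown because they stand for the different patterns below: Spp1 and Dmp1 were higher in both particle libraries, Ibsp was listed at or near 0, and Alpl was lower in both. Each is the 250 bases before the transcript start in RefSeq, 5′ to 3′ on the strand of the gene, on GRCm38.p6, which is not the build named in the submitters' notes. Capitals mark TGTGGT on either strand (ACCACA on the other), the core letters bound by RUNX factors such as Runx2, the master transcription factor of osteoblasts.
Spp1, chr5:104434861-104435110, plus strand: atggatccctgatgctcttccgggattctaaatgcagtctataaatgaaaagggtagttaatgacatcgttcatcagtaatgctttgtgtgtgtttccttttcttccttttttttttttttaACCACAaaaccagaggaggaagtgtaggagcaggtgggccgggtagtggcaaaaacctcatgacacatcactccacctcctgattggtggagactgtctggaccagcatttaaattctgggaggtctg
Dmp1, chr5:104202367-104202616, plus strand: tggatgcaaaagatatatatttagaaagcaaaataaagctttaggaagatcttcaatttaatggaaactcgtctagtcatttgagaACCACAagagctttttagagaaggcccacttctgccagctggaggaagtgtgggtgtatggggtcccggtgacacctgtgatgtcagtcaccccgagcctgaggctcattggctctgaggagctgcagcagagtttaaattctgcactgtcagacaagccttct
Ibsp, chr5:104299037-104299286, plus strand: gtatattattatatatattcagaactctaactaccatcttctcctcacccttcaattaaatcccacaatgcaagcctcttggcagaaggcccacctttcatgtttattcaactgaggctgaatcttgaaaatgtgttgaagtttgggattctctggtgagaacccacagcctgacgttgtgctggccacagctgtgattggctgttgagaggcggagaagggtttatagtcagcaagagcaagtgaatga
Alpl, chr4:137796385-137796634, minus strand: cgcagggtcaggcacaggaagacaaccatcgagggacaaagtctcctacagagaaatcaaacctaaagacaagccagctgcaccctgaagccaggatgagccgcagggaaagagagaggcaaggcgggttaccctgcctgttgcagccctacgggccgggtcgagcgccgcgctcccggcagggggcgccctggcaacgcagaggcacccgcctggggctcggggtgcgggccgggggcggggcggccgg
The letters lie 128 bases before the start of Spp1 and 164 bases before the start of Dmp1, and they are not in the windows shown for Ibsp and Alpl. Over windows of 300 bases that end 50 bases after the start, the RUNX letters were found for 5 of the 9 genes with a window in the table (Bglap, Dmp1, Enpp1, Slc20a1 and Spp1) and in 5 of their 13 windows, against 16.8% of all 32851 windows. Other windows of Spp1 and Dmp1, at alternative starts, do not hold them. The TATA letters TATAAA were also in 5 of the 13 windows (13.6% of all windows), the CCAAT letters in 6 (37.4%) and the AP-1 letters TGANTCA in 0 (7.81%), each searched on both strands. A match describes letters, not binding, and no binding was measured here.

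Osteopontin was the most abundant of the 9 genes in every library and was higher with particles. Spp1 measured 1261.19 FPKM in CTL, 3705.78 FPKM in Ti and 4659.49 FPKM in Ti+Se-Met. It took rank 33 of all listed genes in CTL, rank 6 in Ti and rank 4 in Ti+Se-Met, and its share of all FPKM went from 0.281% in CTL to 0.704% in Ti and 0.906% with Ti+Se-Met. The order was therefore CTL, Ti, Ti+Se-Met, with a wide step between CTL and the particle libraries and a narrow step between the particle libraries. Spp1 was 2.94-fold higher in Ti than in CTL (95% counting interval 2.89 to 2.98) and 3.69-fold higher in Ti+Se-Met than in CTL (3.64 to 3.75). With Se-Met added to the particles it was 1.26-fold higher than with particles alone (1.24 to 1.27). These intervals are exact conditional binomial intervals on fragments estimated from FPKM, transcript length and depth. They cover counting error only, and they compare libraries, not conditions. For Spp1 about 22376 fragments in CTL and 59987 in Ti+Se-Met stood behind the values, so that counting error was small, and the spread between cultures is unknown.

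Dmp1, a SIBLING protein best known from osteocytes and odontoblasts, had the largest differences of the 9 genes. Its level was 0.45 FPKM in CTL, 3.64 FPKM in Ti and 13.85 FPKM in Ti+Se-Met, from about 16, 135 and 367 fragments. Dmp1 thus lay near the lower limit of what the CTL library could measure, and at a middling level in the Ti+Se-Met library (rank 5518). The raw fold of Dmp1 was 8.09 for Ti against CTL (4.92 to 14.9), 30.8 for Ti+Se-Met against CTL (19.2 to 55.9) and 3.8 for Ti+Se-Met against Ti (3.12 to 4.68). On the scale of log2(FPKM + 1), in which the added 1 makes the difference of a low gene smaller, Dmp1 differed by 1.68, 3.36 and 1.68 in the same order. Spp1 differed by 1.55, 1.88 and 0.33 on that scale. With an added 5 in place of 1, Dmp1 was no longer past 2-fold in Ti against CTL and stayed past it in both other comparisons. Which step of Dmp1 was the larger depended on the scale: the raw fold was larger from CTL to Ti, the differences were equal with an added 1, and with an added 5 they were 0.66 and 1.13. For Spp1 most of the distance lay between CTL and Ti.

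Ibsp, the third SIBLING gene, was at the floor of detection. It was listed at 0.04 FPKM in Ti and at 0 in both other libraries. The Ti value is 1 estimated fragment. A count of 0 allows up to 3 fragments, which is 0.112 FPKM in CTL and 0.154 FPKM in Ti+Se-Met. Ibsp lies between Dmp1 and Spp1 on the chromosome, so that a gene close to 0 sat between genes that were higher in both particle libraries.

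**Figure D1:**
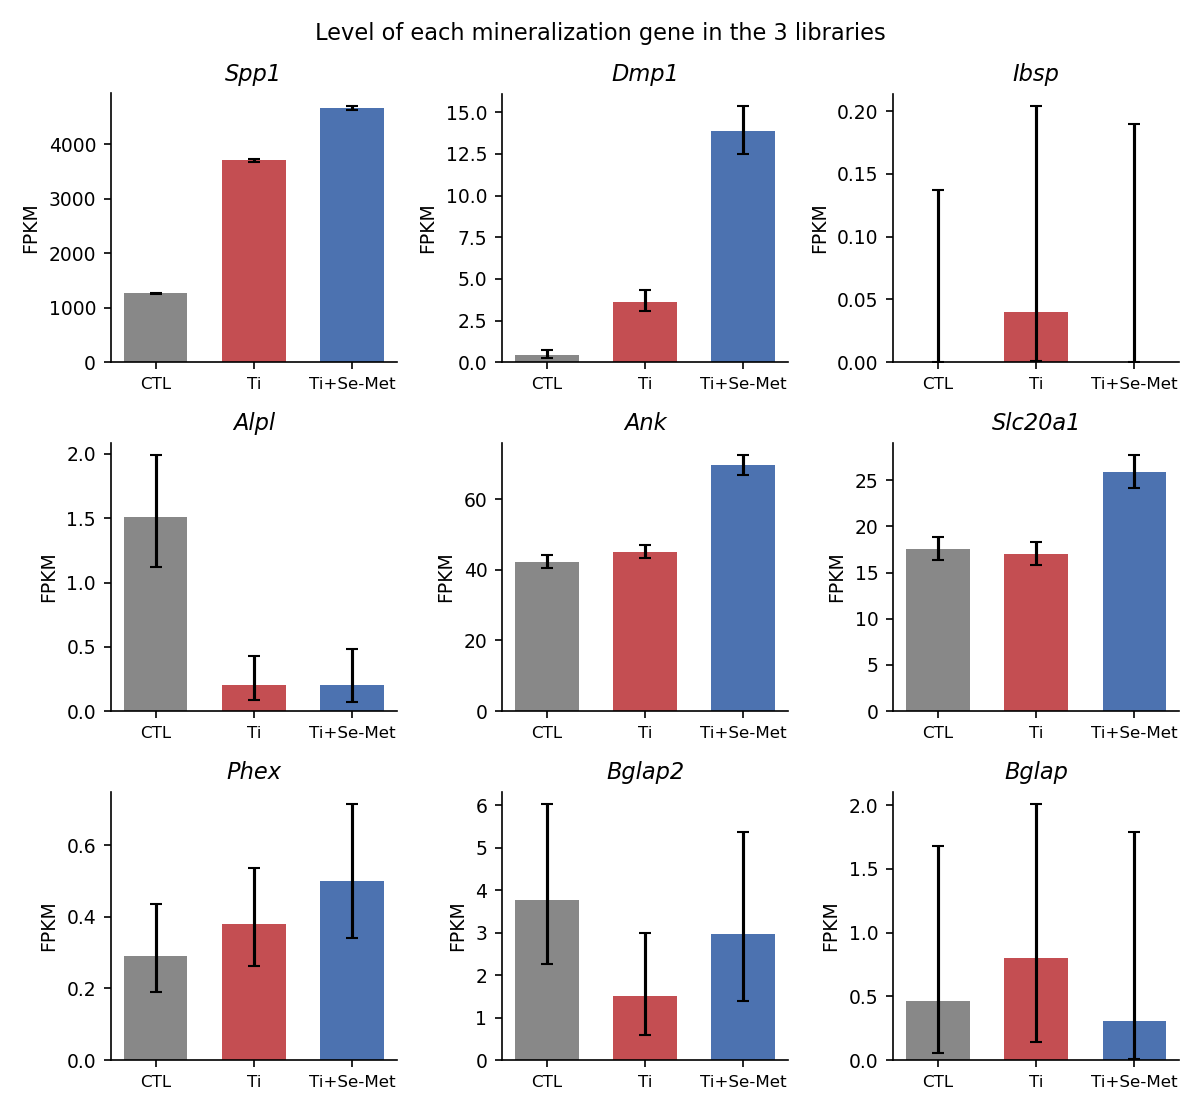
Level of each of the 9 listed genes in FPKM (vertical axis, from 0, a scale of its own in each panel) in the CTL, Ti and Ti+Se-Met libraries, with bars for the single library of each condition and lines for the 95% exact Poisson interval of its estimated fragments (counting error only). Spp1 and Dmp1 stepped up from CTL to Ti to Ti+Se-Met, Alpl was above 1 FPKM in CTL alone, and Ank and Slc20a1 stood apart in Ti+Se-Met.

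Alkaline phosphatase was scarce in all libraries, and scarcer with particles. Alpl measured 1.51 FPKM in CTL and 0.20 FPKM in each of the Ti and Ti+Se-Met libraries, from about 50, 7 and 5 fragments. Its level with particles was 0.132 of that in CTL, with an interval of 0.0526 to 0.305 for Ti and of 0.0429 to 0.344 for Ti+Se-Met. Alpl showed the same value with and without Se-Met, but the interval of that ratio ran from 0.251 to 3.67, so that a difference of several-fold between the particle libraries was not detectable at this depth. On the scale of log2(FPKM + 1) Alpl differed from CTL by -1.06 in both, just past 2-fold. With an added 5 in place of 1, Alpl was no longer past 2-fold, and a filter on a mean of at least 5 FPKM left it out.

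The pyrophosphate exporter and the phosphate cotransporter shared another pattern, with CTL and Ti close together and Ti+Se-Met above both. Ank measured 42.24 FPKM in CTL, 45.14 FPKM in Ti and 69.52 FPKM in Ti+Se-Met. Slc20a1 measured 17.56 FPKM in CTL, 17.04 FPKM in Ti and 25.87 FPKM in Ti+Se-Met. Ank was 1.54-fold higher in Ti+Se-Met than in Ti (1.45 to 1.63) and Slc20a1 1.52-fold higher (1.37 to 1.68), neither reaching 2-fold. On the log2(FPKM + 1) scale both nevertheless lay above the middle 95% of all genes in that comparison. In Ti against CTL the fold was 1.07 for Ank (1.01 to 1.14) and 0.97 for Slc20a1 (0.876 to 1.07). Under other scalings between libraries the log2 difference of Ank ran from -0.13 to 0.05, so that its sign depended on the scaling. That of Slc20a1, -0.04 as deposited, ran from -0.26 to -0.08. The 2 ratios of Ti+Se-Met to Ti were thus close to each other, with overlapping intervals, and lay below the interval of Dmp1.

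Phex, the peptidase of phosphate balance, stayed below 1 FPKM throughout. It measured 0.29 FPKM in CTL, 0.38 FPKM in Ti and 0.50 FPKM in Ti+Se-Met, from about 25, 33 and 31 fragments. The order followed that of Spp1 and Dmp1, but the interval of each Phex ratio included 1, the widest ratio being 1.72 for Ti+Se-Met against CTL (0.976 to 3.02).

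Osteocalcin is encoded in mouse by near-identical neighbouring copies, and reads from them can be assigned to the wrong copy. The coding sequences of Bglap and Bglap2 are 285 bases long and differ at 4 of them (98.6% identity), and 56.3% of all stretches of 100 bases in the Bglap transcript also occur in that of Bglap2. The first 60 coding bases hold 3 of the 4 differences, shown in capitals, and are given because they hold most of the letters by which a read can be told apart (GENCODE M21 on GRCm38).
Bglap: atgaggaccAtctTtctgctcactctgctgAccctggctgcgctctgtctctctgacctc
Bglap2: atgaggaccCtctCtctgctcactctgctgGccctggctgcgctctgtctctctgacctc
Bglap2 measured 3.76 FPKM in CTL, 1.51 FPKM in Ti and 2.98 FPKM in Ti+Se-Met, which is 18, 7 and 10 estimated fragments. Bglap measured 0.46, 0.80 and 0.31 FPKM in the same order, from at most 3 fragments. Bglap2 was lowest in Ti and Bglap highest there, and each value rested on few fragments. The FPKM of both copies summed was 4.22 in CTL, 2.31 in Ti and 3.29 with Ti+Se-Met. The summed level was lowest in Ti, but the interval of its ratio included 1 in each comparison, with 0.547 for Ti against CTL (0.234 to 1.18) and 1.42 for Ti+Se-Met against Ti (0.552 to 3.57). For Bglap2 alone the ratio of Ti to CTL was 0.402 (0.135 to 0.959), and that of Ti+Se-Met to Ti was 1.97 (0.689 to 6.2). A difference in osteocalcin between the particle libraries was not detectable at this depth.

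Counted together, 3 of the 9 listed genes, all among the 6 that reached 1 FPKM, lay past 2-fold in Ti against CTL on the log2(FPKM + 1) scale. Spp1 and Dmp1 were higher, where 3.63% of the 11137 genes were higher, and Alpl was lower, where 3.64% of all genes were lower. The same 3 genes lay past 2-fold in the same directions in Ti+Se-Met against CTL, where the background was 2.64% higher and 3.32% lower. Alpl, at -1.06 in both, lay just past 2-fold and inside the range of the middle 95% of all genes, while Spp1 and Dmp1 lay outside it. These comparisons share the CTL library and are not independent. In Ti+Se-Met against Ti, Dmp1 alone was past 2-fold, in a comparison with a background of 0.162% higher and 0.0629% lower. Bglap2 at 0.67, Ank at 0.61 and Slc20a1 at 0.57 lay within 2-fold there. They were nevertheless above the middle 95% of all genes (-0.51 to 0.43), as was Dmp1. Alpl passed the filter on low values through CTL alone and Dmp1 through the particle libraries alone, so that for these genes the filter and the difference are not independent. Ibsp, Phex and Bglap did not reach the filter.

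**Figure D2:**
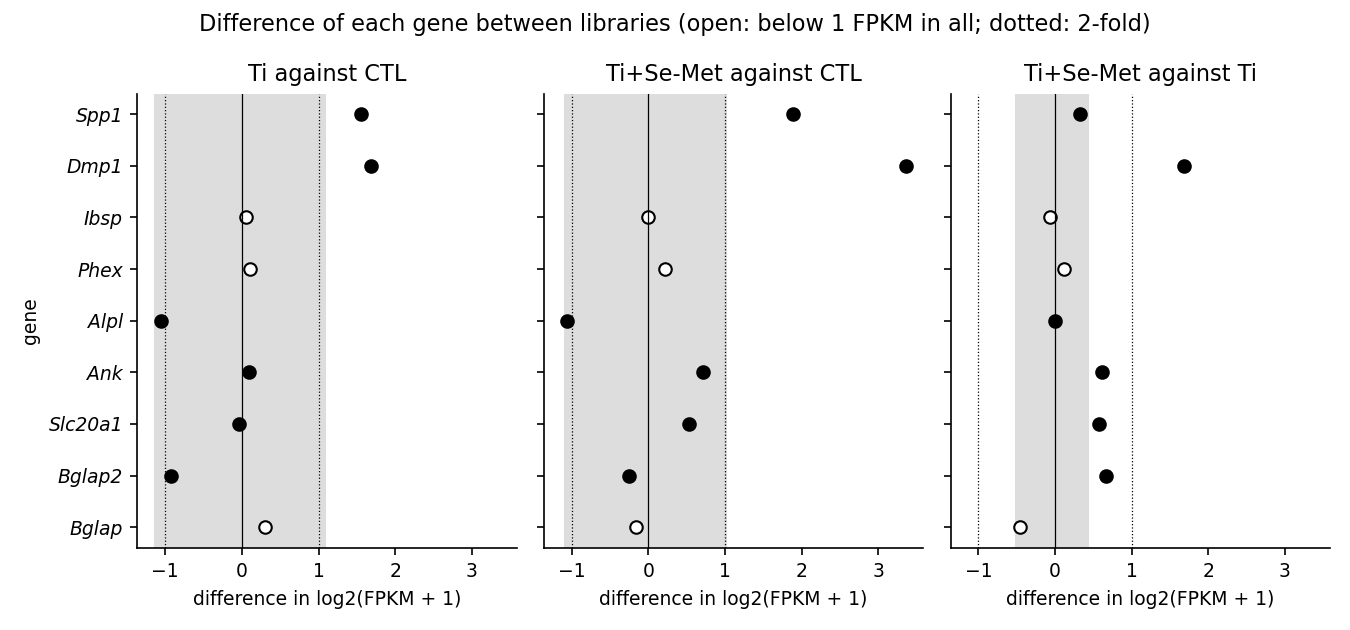
Difference of each listed gene in log2(FPKM + 1) (horizontal axis) for Ti against CTL, Ti+Se-Met against CTL and Ti+Se-Met against Ti, with filled points for the genes that reached 1 FPKM in at least 1 library, dotted lines at 2-fold and a grey band for the middle 95% of 11137 genes. The band ran from -1.14 to 1.08 for Ti against CTL and from -0.51 to 0.43 for Ti+Se-Met against Ti. Dmp1 lay outside it in all panels, Spp1 in the panels against CTL and Alpl in none. In Ti+Se-Met against Ti, Bglap2, Ank and Slc20a1 also lay above it, Bglap2 from few fragments and with a counting interval that included 1.

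The split of all genes into higher and lower depended on how the libraries were scaled to each other. As deposited, Ti against CTL had 404 higher and 405 lower genes. Rescaling the libraries to 1 common sum gave 185 and 674, while the median difference of all genes moved from 0.08 to -0.13. For Ti+Se-Met against CTL, 294 higher and 370 lower became 174 and 614, with the median moving from 0.01 to -0.17. Upper-quartile scaling gave 242 higher and 535 lower for Ti against CTL. Over the 3 other scalings, the difference of Spp1 in Ti against CTL ran from 1.32 to 1.51, that of Dmp1 from 1.57 to 1.65 and that of Alpl from -1.17 to -1.07, all past 2-fold. Bglap2, at -0.92 as deposited, ran from -1.09 to -0.95, and was past 2-fold with a common sum and with upper-quartile scaling.

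In the reference annotation of the mouse, the SIBLING genes form a row on chromosome 5 beside Sparcl1, in the order Sparcl1, Dspp, Dmp1, Ibsp, Mepe and Spp1. The listed genes of this row did not share a direction. Sparcl1, a secreted relative of osteonectin, measured 39.81 FPKM in CTL, 9.78 FPKM in Ti and 22.88 FPKM in Ti+Se-Met, so that it was lowest where Dmp1 and Spp1 were intermediate. Its ratio was 0.246 for Ti against CTL (0.219 to 0.276) and 2.34 for Ti+Se-Met against Ti (2.05 to 2.67). Mepe, a SIBLING gene of osteocytes, was listed at 0.05 FPKM in CTL and at 0 in the others, and Dspp, which encodes dentin sialoprotein, is not listed. Outside the row, Nudt9, an ADP-ribose hydrolase, measured 58.02 FPKM in CTL, 103.54 in Ti and 124.65 with Ti+Se-Met. Pkd2, a cation channel next to Spp1, measured 107.18, 71.37 and 82.01 FPKM. The genes that flank Alpl lay within 2-fold, with Rap1gap at 3.69, 5.43 and 5.42 FPKM and Ece1 at 18.63, 19.10 and 22.97 FPKM. Next to the osteocalcin copies, Bglap3 measured 0.74, 0.24 and 0.75 FPKM and Pmf1, a kinetochore gene, 13.11, 28.35 and 31.43 FPKM.

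**Figure D3:**
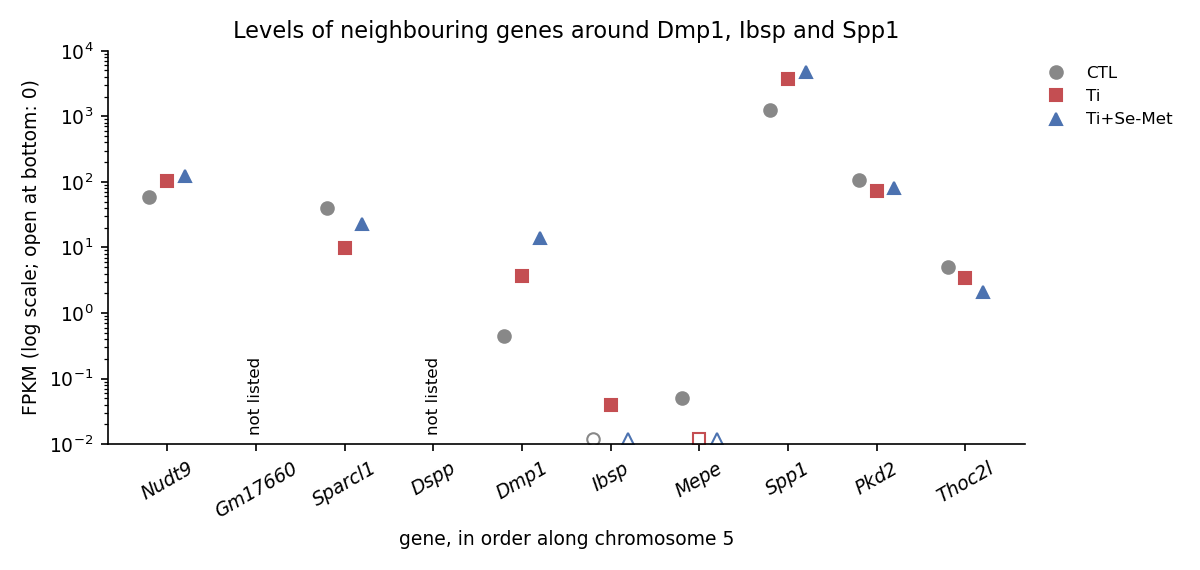
FPKM (vertical axis, log scale, open symbols at the bottom for values of 0) of the genes around Dmp1, Ibsp and Spp1, in their order along chromosome 5 (horizontal axis, order only), in CTL (circles), Ti (squares) and Ti+Se-Met (triangles). Dmp1 and Spp1 stepped up across the libraries, Ibsp and Mepe between them stayed at or below 0.05 FPKM, and Sparcl1 was lowest in Ti at 9.78 FPKM.

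A wider list of 45 genes of mineral formation was set beside the 10 genes, of which 40 are listed and 27 reached 1 FPKM. In Ti against CTL, 3 of these 27 genes were past 2-fold higher, 2 past 2-fold lower and 22 within, with a median difference of -0.12 against 0.08 for all genes, of which 3.63% were higher and 3.64% lower. Against CTL, the Ti+Se-Met library had 2 higher, 0 lower and 25 within (median -0.04, all genes 0.01, with 2.64% higher and 3.32% lower). Against Ti it had 1 higher and 26 within (median 0.18, all genes -0.06, with 0.162% higher and 0.0629% lower).

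Among the genes of phosphate and pyrophosphate handling, 4 of 7 reached 1 FPKM. Phospho1, a phosphatase that frees phosphate inside matrix vesicles, measured 0.99 FPKM in CTL, 6.52 FPKM in Ti and 5.02 FPKM in Ti+Se-Met. It was 6.59-fold higher in Ti than in CTL (4.36 to 10.8), the opposite direction to Alpl, which acts beside it. Phospho1 passed the filter on low values through the particle libraries alone, so that its filter and its difference are not independent. A filter on a mean of at least 5 FPKM left it out. Slc20a2, the sister transporter of Slc20a1, measured 17.33, 26.39 and 25.32 FPKM, so that it was higher with particles whether or not Se-Met was added, while Slc20a1 was higher than CTL in the Ti+Se-Met library and not in Ti. Xpr1, a phosphate exporter, measured 10.16, 9.06 and 8.65 FPKM. Nt5e and Abcc6, which act on extracellular nucleotides and ATP release, and Smpd3 stayed below 1 FPKM.

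Of the secretory kinases and proteases that modify SIBLING proteins, 6 of 7 reached 1 FPKM and 0 were past 2-fold in any comparison. At most 3.64% of all genes lay past it in either direction of a comparison, so that 0 among so few genes is not informative. Fam20c, the kinase that phosphorylates osteopontin and Dmp1, measured 15.01 FPKM in CTL, 14.60 FPKM in Ti and 17.69 FPKM in Ti+Se-Met. Bmp1, a protease that cuts Dmp1 into its active fragments, measured 40.29, 27.69 and 35.69 FPKM. The kinase level therefore stayed near that of CTL while the level of its substrate Spp1 was several-fold higher.

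Among osteopontin receptors, 5 of 7 reached 1 FPKM and 0 were past 2-fold, where at most 3.64% of all genes were in either direction. That count is likewise not informative. Itgav was past 2-fold, lower in Ti than in CTL, with the libraries scaled to a common sum. Itgav, the shared alpha chain, measured 50.46, 28.82 and 35.87 FPKM across the 3 libraries in the same order, and Itgb1 197.35, 117.93 and 154.59 FPKM. Cd44 measured 126.62, 114.41 and 132.60 FPKM, and Itgb5 128.63, 153.26 and 173.48 FPKM. Itgav, Itgb1, Cd44 and Itgb3 were lowest in Ti, while Spp1 was lowest in CTL and highest in Ti+Se-Met. Itgb5 had the order of Spp1. Between Ti+Se-Met and Ti, the 5 receptors differed by 0.18 to 0.49 on the log2 scale, all above 0. All but Itgb3, at 0.49, lay inside the middle 95% of all genes (-0.51 to 0.43). The share of all genes above 0 was not counted.

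Among Gla proteins and the carboxylation enzymes they need, 4 of 5 reached 1 FPKM. Mgp, an inhibitor of soft-tissue calcification, measured 1438.65 FPKM in CTL, 1884.82 FPKM in Ti and 2167.54 FPKM in Ti+Se-Met, so that it was, like osteopontin, an abundant inhibitor of mineral growth with the order CTL, Ti, Ti+Se-Met. Its ratio of 1.51 for Ti+Se-Met against CTL (1.47 to 1.55) was smaller than that of Spp1. Ggcx, the carboxylase that makes osteocalcin and Mgp able to bind calcium, measured 33.91, 16.21 and 20.63 FPKM, just past 2-fold lower in Ti (log2 difference -1.02).

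Among transcription factors of these genes, 4 of 8 reached 1 FPKM. Runx2 measured 26.77 FPKM in CTL, 17.14 FPKM in Ti and 22.97 FPKM in Ti+Se-Met, and Sp7 (osterix), which acts downstream of it, 0.63, 0.37 and 0.54 FPKM. Both were lowest in Ti, with ratios to CTL of 0.64 for Runx2 (0.598 to 0.685) and 0.587 for Sp7 (0.289 to 1.16). Atf4, a stress-response factor that also acts on osteocalcin, was 2.41-fold higher in Ti than in CTL (2.29 to 2.54), with 91.03 FPKM in CTL, 219.82 FPKM in Ti and 207.00 FPKM in Ti+Se-Met. In Ti+Se-Met against CTL it was past 2-fold except with the libraries scaled to a common sum. Dlx5, a homeobox factor of osteoblasts, lay within 2-fold in all comparisons. Vdr, the vitamin D receptor, measured 10.34, 22.08 and 14.67 FPKM, past 2-fold in Ti against CTL as deposited but under none of the 3 other scalings. Sost, Fgf23 and Cyp24a1 are not listed, nor is Ahsg.

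**Figure D4:**
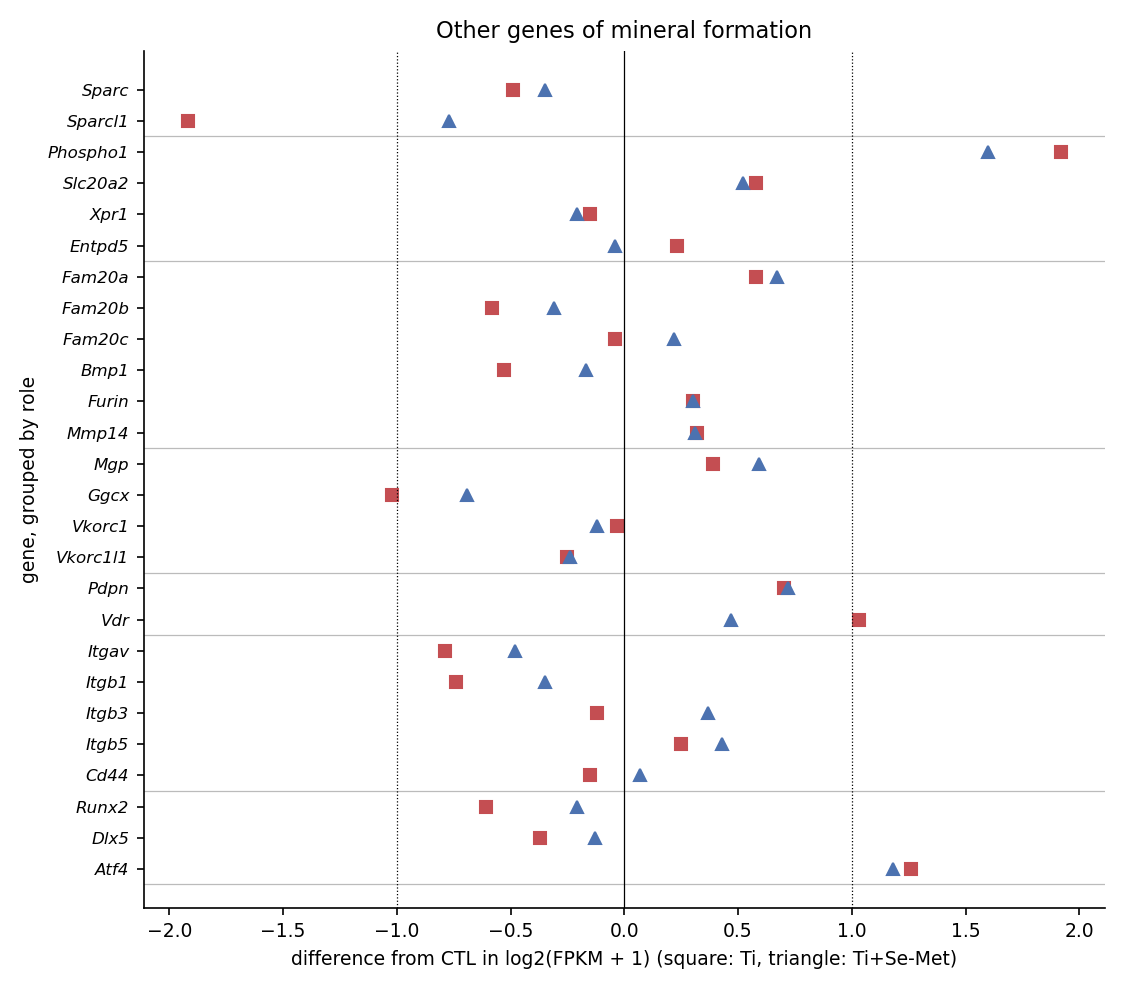
Difference from CTL in log2(FPKM + 1) (horizontal axis) of 26 of the 27 other genes of mineral formation that reached 1 FPKM, grouped by role (grey lines), in Ti (squares) and in Ti+Se-Met (triangles), with dotted lines at 2-fold. Phospho1 and Atf4 lay past 2-fold higher in both libraries, while Sparcl1 and Ggcx lay past 2-fold lower in Ti only.

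Genes with patterns most like those past 2-fold were found by the distance between their pairs of log2 differences from CTL, among 8725 genes with a mean of at least 5 FPKM. The pattern covers 3 libraries that share CTL, and likeness here says nothing of function. Nearest to Spp1 were Plekho1 at a distance of 0.055, with 17.23, 52.53 and 63.81 FPKM, and Grem1, a BMP antagonist, at 0.057, with 40.97, 124.95 and 148.88 FPKM. Aqp1, a water channel, came next at 0.125. No gene lay close to Dmp1, since the nearest was Ptgs2, the inducible cyclooxygenase, at a distance of 0.837, with 6.10, 13.00 and 51.82 FPKM. After it came Anxa8 and Dusp5, at distances of 1.054 and 1.184. Ptgs2 shared with Dmp1 the order CTL, Ti, Ti+Se-Met and a larger step for Se-Met than Spp1 had. Nearest to Alpl were Efnb1, Ankrd44 and Adamts10, at distances of 0.028 to 0.032, with Efnb1 at 37.19, 17.29 and 17.61 FPKM. That likeness holds with the added 1 and not for the raw ratio of Alpl, since with an added 0.1 Alpl differed from CTL by -2.42 in both particle libraries.

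The identity of the cells was checked against markers. Col1a1, a chain of bone collagen, measured 1333.19, 354.20 and 481.63 FPKM in library order and its partner Col1a2 2688.49, 998.91 and 1256.60 FPKM, while Sp7 stayed below 1 FPKM, so that collagen and Runx2 were present and the osterix and alkaline phosphatase of a maturing osteoblast were scarce. Of the osteocyte markers, Sost and Fgf23 are not listed and Mepe was at or below 0.05 FPKM, also where Dmp1 was highest. The remaining marker of that list, Pdpn, a membrane glycoprotein, measured 89.03, 144.98 and 146.87 FPKM, so that it was higher with particles, by 1.63-fold in Ti (1.52 to 1.74) and 1.65-fold in Ti+Se-Met (1.54 to 1.77). Of the 6 markers of macrophages and osteoclasts, which also make osteopontin, 4 are listed, and their summed level was 17.86, 30.18 and 26.74 FPKM. Nearly all of it was Ctsk, at 17.78, 29.68 and 26.22 FPKM. Cd68 measured 0.06, 0.37 and 0.42 FPKM and Csf1r 0.02, 0.07 and 0.10 FPKM, each from at most 6 fragments. Acp5 was listed at 0.06 FPKM in Ti and at 0 in the others, and Ptprc and Adgre1 are not listed. The part of such cells in the level of Spp1 was not tested. Of the 4 chondrocyte markers, Sox9 was listed at 24.94, 36.25 and 39.29 FPKM, and Acan is not listed. Col2a1 and Comp stayed below 1 FPKM and ran in opposite orders, Col2a1 at 0.18, 0.24 and 0.72 FPKM and Comp at 0.36, 0.13 and 0.04 FPKM. Markers of fat, vessel and muscle were below 1 FPKM or not listed. The depth was estimated as 13850000 fragments in CTL, 14100000 in Ti and 10050000 with Ti+Se-Met, so that low values were least precise in Ti+Se-Met. Depths that fitted nearly as well ran from 12550000 to 15750000 in CTL, 12850000 to 15900000 in Ti and 8500000 to 12050000 with Ti+Se-Met. The counting intervals do not include this uncertainty.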

How the data were processed

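RNA was measured in MC3T3-E1 cells, with a single library for each of 3 conditions. Before deposit, the authors discarded low-quality and adapter-bearing reads, used HISAT2 for alignment and HTSeq for counting, and gave FPKM per gene to 2 decimals. The submitters' processing notes also name SAMtools, StringTie and mm9. How FPKM was made, and whether counting used strand, is not given in the sources used here. All columns of values were matched to a library by name, and 0 were left unmatched.

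Differences were taken between log2(FPKM + 1) values in Python 3.11.15 (pandas 2.3.3, numpy 2.4.6, scipy 1.17.1). A gene was kept where some library held 1 FPKM or more, and differences past 2-fold were counted. No count model was applied, since FPKM is normalized. Low FPKM values of genes with a transcript of 350 to 1000 bases lie on steps of 1 fragment, from which depth was estimated, with 130 bases subtracted from each length (GENCODE M21 on GRCm38, lengths found for 95.3% of genes). The estimated fragments added up to 103%, 105% and 105% of the estimated depths, which are approximate. The depth cancels out of these shares, so that they are no check of it. Intervals are 95% exact conditional binomial intervals of a raw FPKM fold. The 2-fold call for Ti against CTL, the depth estimate and the coverage of the binomial interval were also run on simulated data. The other steps were not.

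The genes named are the 10 members, the wider list of 45 genes, neighbours on the chromosome, and for each member past 2-fold the 3 genes with the nearest pattern. Of the genes under these rules, 1 is counted in the wider list but not reported here. The members, lists and rules were chosen with earlier results of these data known. Alternatives tried were a pseudocount of 0.1 or 5, the filter dropped or set to a mean of 5 FPKM, a threshold of 1.5-fold or 4-fold, libraries scaled to a common sum (TPM), by upper quartile or by median of ratios, and osteocalcin copies summed.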

Additional observations from a re-analysis of the deposited data

How the results depend on the processing

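No paired analysis was possible because a condition is a single library, and for that reason no library could be left out. Under other settings, 138 log2 differences of single genes and of the summed osteocalcin copies were set against their main value. Of these, 119 moved by less than the longer arm of the counting interval of the raw fold. Another 19 moved by more, and 0 turned a called direction. This measures how far a value moved, not whether it lay inside the interval. For Ibsp, whose fold had no finite interval, no move could exceed it. The mineralization genes past 2-fold for Ti against CTL numbered 3, but 1 under a pseudocount of 5 (Spp1) and 0 with 4-fold. For Ti+Se-Met against CTL they numbered 3, but 1 at 4-fold (Dmp1). For Ti+Se-Met against Ti the number was 1, but 3 at 1.5-fold (with Ank and Bglap2) and 0 at 4-fold. In the wider list, Ti against CTL had 5 such genes, but 10 at 1.5-fold, 2 under a pseudocount of 5, and 0 past 4-fold. As TPM it kept 5, with Itgav in and Vdr out, and Vdr was also out under the other scalings. Its 2 genes for Ti+Se-Met against CTL were 1 under a pseudocount of 5, under a mean of 5 FPKM or as TPM, 7 at 1.5-fold and 0 at 4-fold. Its 1 gene for Ti+Se-Met against Ti was lost, leaving 0, under a pseudocount of 5 and also at 4-fold. A higher pseudocount or threshold shrinks counts by construction, and the cause of the others was not tested. Depth limits Ibsp, Phex, Alpl and both osteocalcin copies, each at 50 estimated fragments or fewer in every library.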

Other observations

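The deposited table gives functional terms for each gene, and 56 genes carry a term for bone mineralization or biomineral tissue development. This list was chosen after the values had been seen. Of its 42 genes that are neither among the 10 genes nor in the wider list, 32 reached 1 FPKM. In Ti against CTL 3 of them were past 2-fold higher and 5 lower, with a median difference of 0.17 on the log2(FPKM + 1) scale against 0.08 for all genes, of which 3.63% were higher and 3.64% lower. The Ti+Se-Met library had 5 higher and 4 lower than CTL (2.64% and 3.32% of all genes), and 1 higher than Ti (0.162% of all genes).

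Beside Col1a2, the genes past 2-fold lower in Ti were Aspn, Ptn, Fgfr2 and Axin2. Aspn, a small proteoglycan that binds collagen, measured 256.34 FPKM in CTL, 25.37 FPKM in Ti and 23.81 FPKM in Ti+Se-Met. Ptn, a heparin-binding growth factor, measured 428.56, 129.70 and 216.04 FPKM, so that it was 1.67-fold higher in Ti+Se-Met than in Ti (1.58 to 1.75). Fgfr2, a receptor for fibroblast growth factors, measured 35.44, 14.70 and 15.97 FPKM, and Axin2, a target and brake of Wnt signalling, 8.70, 2.98 and 2.94 FPKM. The 3 higher genes were Gla, a lysosomal galactosidase, at 7.13, 38.02 and 26.38 FPKM, Klf10 at 4.88, 18.34 and 16.67 FPKM and Sbno2 at 14.95, 41.53 and 43.09 FPKM. Ptgs2 was the gene past 2-fold higher than Ti in the Ti+Se-Met library, by 1.92 on the log2 scale.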
